A study of Mus musculus with 6 samples.

Results

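The genes described here are 10 that write, copy, erase or read DNA methylation, or that silence genes beside it. They are the DNA methyltransferase genes Dnmt1, Dnmt3a and Dnmt3b, the dioxygenase genes Tet1, Tet2 and Tet3, Uhrf1, Mbd2, Trim28 and Setdb1. They were chosen by gene symbol from the 15319 genes in the deposited count table, and all 10 were found with at least 1 count. RNA-Seq libraries were made from tumor-infiltrating Tregs of a WT group (3 libraries) and a cKO group (3 libraries). Both groups carried the Foxp3 Yfp-Cre allele on a C57BL/6J background, in which Cre is made by cells that express Foxp3. No other allele is given for the WT (control) mice, and in the cKO mice both copies of Xrcc6, the gene for Ku70, were floxed. LLC cells, a mouse lung carcinoma line, were injected into the tail vein of mice given as 8 to 10 weeks old, and lungs with tumors were taken on day 21. The sources used here do not state, for these libraries, the sort gate, the sex of the mice or whether animals were pooled, so p-values measure the spread between these libraries.

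DNMT3A and DNMT3B place methyl groups on cytosines that precede guanine (CpG), and DNMT1 copies the marks to the new strand when DNA is replicated. UHRF1 recognises the half-methylated CpG behind the replication fork and brings DNMT1 there, while TET enzymes oxidise methylcytosine and so start its removal. In Tregs an intronic enhancer of Foxp3 is kept free of methylation, which holds Foxp3 expression steady through cell division, and TET2 and TET3 are known to be needed for this. TRIM28 (KAP1) is recruited by KRAB zinc finger proteins and brings SETDB1, which methylates histone H3 at lysine 9, to retroelements and imprinted regions. Many germline genes are kept silent in somatic cells by methylation of their promoters. Methylation itself was not measured in this experiment.

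Total counts ranged from 19032620 to 23159815 per library, and 3 counts, the limit that a count of 0 allows, were worth 0.133 to 0.156 CPM, counts scaled by TMM to a common library size. Xrcc6 measured 20.9, 63.1 and 23.8 CPM in WT against 5.24, 3.51 and 4.18 CPM in cKO. The cKO libraries were all lower than the WT libraries, by -3.06 on the log2 scale (edgeR: unadjusted p = 0.000306, adjusted p = 0.984). Without WT replicate 2 the difference was -2.38 (edgeR: adjusted p = 0.0196). DESeq2 over all 6 libraries gave -3.05 (adjusted p = 1.22e-05). The listing order of replicates 1, 2 and 3 is kept for all values given by library. The Treg genes Foxp3 (150 to 282 CPM) and Ctla4 (875 to 1395 CPM) were high in all 6 libraries. WT replicate 2 stood apart at a similar total, with 11513 genes detected against 14442 to 14737 in the others. Among 1168 genes averaging 2 to 5 CPM elsewhere, 31.4% had a count of 0 in it. It lay below all 5 others for 42.7% of all genes and above all 5 for 29.0%. Of the 10 genes, 3 lay below and 3 above, so each is given with and without that library. Summed over 8 markers of macrophages and dendritic cells, the libraries held 631, 1288 and 1170 CPM in the WT group and 633, 1260 and 1821 CPM in the cKO group. Of the 8 markers, 7 had log2 fold changes above 0 (median 0.76), and 8 without WT replicate 2 (median 1.04). In edgeR, 0 of them had an unadjusted p under 0.05, with or without that library. In bulk RNA, fewer cells of a type and less RNA per cell cannot be told apart.

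None of the 10 genes passed the test between the cKO and WT groups. With edgeR's quasi-likelihood test over 15315 genes, 0 of the 10 had an adjusted p under 0.05 and 0 had an unadjusted p under 0.05. DESeq2 and limma's voomWithQualityWeights also gave 0 of 10 at either limit. DESeq2 had 0.622% of all genes higher and 1.39% lower in cKO at an unadjusted p under 0.05. Over all genes, edgeR called 0 at an adjusted p under 0.05 (0% of genes tested), against 2 (0.0131%) by DESeq2 and 0 by limma, and 277, or 1.81%, had an unadjusted p under 0.05. The adjusted p from edgeR was 0.984 for each of the 10. Without WT replicate 2, edgeR again gave 0 of the 10 at either limit, while 3.01% of all genes (1.52% higher, 1.5% lower in cKO) had an unadjusted p under 0.05. At an adjusted p under 0.05 it called 0.00654% of all genes without that library, and DESeq2 called 0.0196%. Of the 10 log2 fold changes, 4 were above and 6 below 0, with a median of -0.08, and the median of all genes tested was 0.04. Without WT replicate 2, 5 were above and 5 below 0, with medians of -0.03 for the 10 and -0.01 for all genes. The groups overlapped for all 10 genes, where they did not overlap for 8.24% of all genes (5.01% higher and 3.23% lower in cKO).

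**Figure D1:**
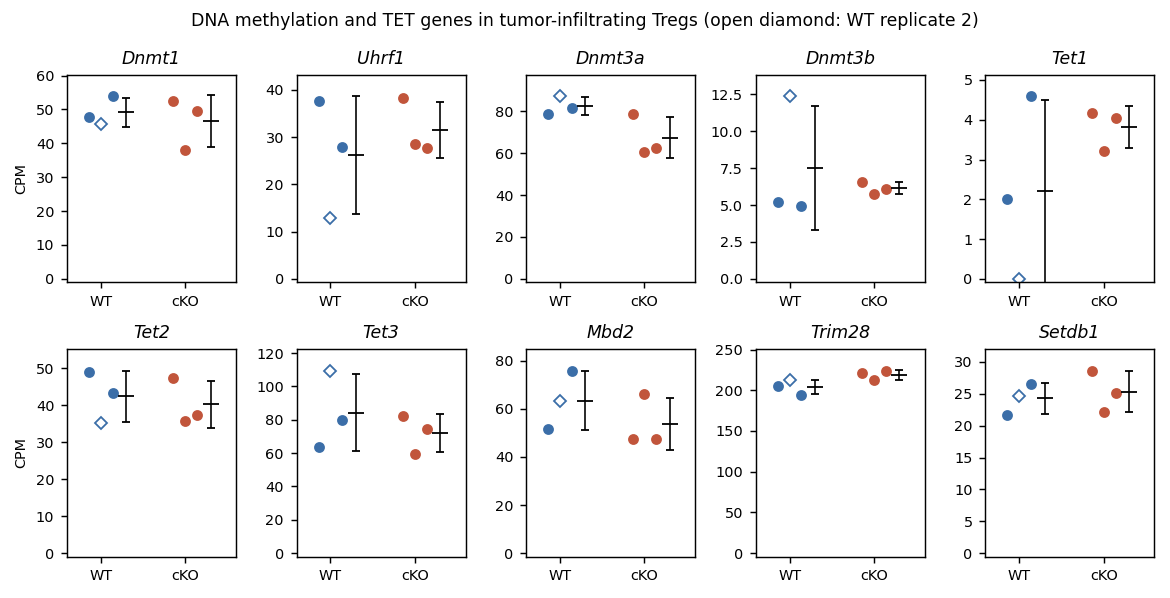
CPM of each gene (vertical axes, each starting at 0) in the 3 WT and 3 cKO libraries, with the mean and SD of each group beside the points, the bar of Tet1 being clipped at 0. The groups overlap in all 10 panels, and WT replicate 2 (open diamond) is apart from the other 5 libraries for Uhrf1, Dnmt3b, Tet1 and Tet3.

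Dnmt1, the maintenance methyltransferase, lies on chromosome 9 of GRCm38 from 20907209 to 20959888 on the minus strand. Its WT libraries held 47.9, 45.7 and 53.8 CPM against 52.5, 38.0 and 49.5 CPM in cKO. The lowest library was cKO replicate 2, and the other 2 cKO libraries lay within the WT range. As a log2 ratio, cKO over WT gave -0.07 (standard error 0.17, 95% interval -0.48 to 0.33), which is a fold of 0.950 with an interval of 0.716 to 1.26. Without WT replicate 2 the log2 fold change was -0.13 (standard error 0.16).
Uhrf1 lies on chromosome 17 from 56303321 to 56323486 on the plus strand. WT libraries measured 37.7, 13.0 and 27.9 CPM, and cKO libraries 38.3, 28.6 and 27.7 CPM. WT replicate 2 was below all other libraries, at 0.405 of their mean, and the remaining WT libraries spanned nearly the same range as the cKO libraries. cKO and WT differed on the log2 scale by 0.27 (standard error 0.37, 95% interval -0.60 to 1.14). The difference turned to -0.06 (standard error 0.19, 95% interval -0.49 to 0.37) without WT replicate 2. Uhrf1 and Tet2 were highest in WT replicate 1 and cKO replicate 1, the libraries with the lowest sums of macrophage and dendritic cell markers (631 and 633 CPM), and the part of these cells in the result was not tested.

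Since DNMT1 and UHRF1 act at replication forks, their genes were set beside 20 S phase and mitosis genes. Of these, 12 had log2 fold changes above and 8 below 0, with a median of 0.07. In edgeR, 0 of the 20 were higher and 1 was lower at an unadjusted p under 0.05, where 0.94% and 0.868% of all genes were. That gene was Cdk1, the mitotic kinase, on average at 17.3 ± 7.74 CPM in WT against 9.29 ± 1.48 CPM in cKO (SD, n = 3). Its log2 fold change was -0.90 (edgeR: unadjusted p = 0.0472, adjusted p = 0.984), which became -0.49 when WT replicate 2 was dropped (edgeR: unadjusted p = 0.0556). Mcm6, Pcna and Mcm4, the most abundant of the list, had log2 fold changes of 0.09, -0.29 and 0.02, which became -0.10, -0.10 and 0.11 when WT replicate 2 was dropped. The summed CPM of the 20 genes was 1146, 952 and 887 in the WT libraries and 1035, 953 and 915 in the cKO libraries. The sum was thus highest in WT replicate 1 and cKO replicate 1, as was Uhrf1. Without WT replicate 2, 0 of the 20 had an unadjusted p under 0.05 from edgeR, and their median was -0.10.

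The genes most like Dnmt1 and Uhrf1 over the 6 libraries were found by the root mean square difference of centred log2(CPM + 0.5), among 8446 other genes with a mean of at least 10 CPM. Nearest to Dnmt1 were Abl1 (difference 0.02), Ptgir (0.04) and Cenpo (0.05). Nearest to Uhrf1 were Rbbp5 (0.04), Ppp1r16a (0.07) and Nrde2 (0.09), each lowest in WT replicate 2. For comparison, the profiles of Dnmt1 and Uhrf1 varied about their own means by 0.16 and 0.51 on the same scale.

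Dnmt3a, the main de novo methyltransferase of mature T cells, lies on chromosome 12 from 3806007 to 3914443 on the plus strand. Its WT libraries held 78.8, 87.1 and 81.4 CPM against 78.8, 60.8 and 62.7 CPM in cKO. Replicates 2 and 3 of the cKO group were below every WT library, and cKO replicate 1 was level with WT replicate 1. Averages were 82.5 ± 4.25 CPM for WT against 67.4 ± 9.93 CPM for cKO (SD, n = 3). On the log2 scale, cKO less WT came to -0.29 (standard error 0.15, 95% interval -0.64 to 0.06), whose unadjusted p in edgeR, 0.0928, was the lowest of the 10 genes. An exact permutation test, two-sided, gave p = 0.2, where 3 libraries against 3 cannot go below 0.1. When cKO replicate 1 was left out, the difference became -0.42 (edgeR: unadjusted p = 0.0362, adjusted p = 0.996), in a fit where 1.2% of all genes, and 0.575% in the lower direction, had an unadjusted p under 0.05. Dropping WT replicate 2 gave -0.25 (edgeR: unadjusted p = 0.114).
Dnmt3b, its paralog, lies on chromosome 2 from 153649450 to 153687730 on the plus strand. WT libraries measured 5.21, 12.4 and 4.95 CPM, and cKO libraries 6.59, 5.76 and 6.09 CPM. WT replicate 2 was the highest library, at 2.16 times the mean of the others. As a log2 ratio, cKO over WT gave -0.29 (standard error 0.48), and it turned to 0.27 (standard error 0.23) without that library, when the remaining WT libraries were both below the cKO libraries. Without that library the groups did not overlap for 2 of the 10 genes, the other being Trim28, and for 16% of all genes (8.48% higher and 7.53% lower in cKO), both of the 2 being higher. Per kb of exon, Dnmt3a made up 82.3, 68.4 and 83.5% of the summed Dnmt3a and Dnmt3b level in WT, against 78.6, 76.4 and 75.9% in cKO.

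Tet2 and Tet3 made up most TET RNA in these libraries, while Tet1 was low and had 0 counts in WT replicate 2. Tet2 lies on chromosome 3 from 133463679 to 133545139 on the minus strand. Its WT libraries held 48.9, 35.2 and 43.2 CPM against 47.3, 35.8 and 37.4 CPM in cKO. Each group held a high library and a low one, and the ranges were nearly the same. cKO and WT differed on the log2 scale by -0.08 (standard error 0.19, 95% interval -0.53 to 0.37), and -0.20 (standard error 0.15) without WT replicate 2.
Tet3 lies on chromosome 6 from 83362373 to 83459084 on the minus strand. WT libraries measured 63.8, 109 and 79.6 CPM, and cKO libraries 82.1, 59.6 and 74.3 CPM. WT replicate 2 was above all other libraries. On the log2 scale, cKO less WT came to -0.23 (standard error 0.23), and it was 0.00 (standard error 0.17, 95% interval -0.38 to 0.38) without that library.
Tet1 lies on chromosome 10 from 62804570 to 62908996 on the minus strand. Its WT libraries held 42, 0 and 88 counts (2.01, 0 and 4.59 CPM) against 90, 67 and 91 counts (4.18, 3.22 and 4.05 CPM) in cKO. The count of 0 in WT replicate 2 allows up to 0.141 CPM, and it falls in the abundance class in which 31.4% of genes were at 0 there. As a log2 ratio, cKO over WT gave 0.80 with a standard error of 1.31, and without WT replicate 2 it was 0.21 with a standard error of 0.38 (95% interval of the fold 0.634 to 2.12). Leaving out WT replicate 3 instead gave 1.92.

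**Figure D2:**
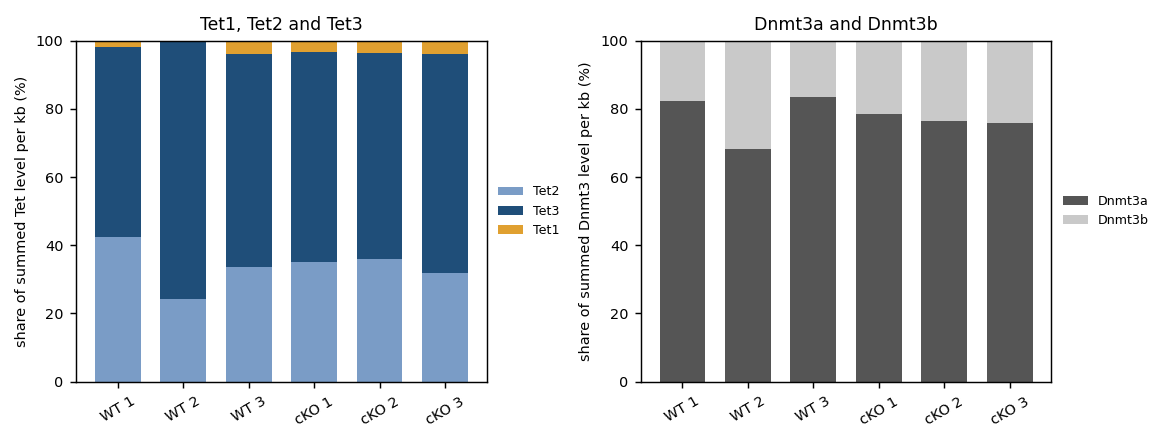
Share (%, vertical axes) of each paralog in the level per kb of exon, summed over Tet1, Tet2 and Tet3 (left) and over Dnmt3a and Dnmt3b (right), in each library. Tet3 makes up 55.8 to 64.2% of the TET sum in all libraries but WT replicate 2, where it makes up 75.9%.

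Relative to exon length, Tet3 made up 55.8, 75.9 and 62.6% of the summed TET level in WT, against 61.5, 60.5 and 64.2% in cKO. Tet2 made up 42.3, 24.1 and 33.5% and 35.1, 36.0 and 32.0% in the same libraries. Tet1 was at most 3.89%. The sum over the 3 methyltransferase genes was 1.79, 1.60 and 1.73 times the sum over the TET genes in the WT libraries, and 1.64, 1.68 and 1.68 times in the cKO libraries. These ratios are descriptions, with no test, since the genes were chosen with earlier results known.

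Mbd2, which binds methylated CpG and recruits the NuRD deacetylase complex, lies on chromosome 18 from 70568189 to 70626131 on the plus strand. Its WT libraries held 51.4, 63.2 and 75.9 CPM against 47.6, 66.0 and 47.6 CPM in cKO. Replicates 1 and 3 of the cKO group were below all WT libraries, and cKO replicate 2 was among them. cKO and WT differed on the log2 scale by -0.24 (standard error 0.21, 95% interval -0.72 to 0.24), and it was -0.24 without WT replicate 2. Leaving out WT replicate 3 gave -0.086, and leaving out cKO replicate 2 gave -0.42.
Trim28, which encodes KAP1, lies on chromosome 7 from 12999114 to 13031035 on the plus strand and overlaps Zbtb45 on the other strand. WT libraries measured 205, 212 and 195 CPM, and cKO libraries 221, 212 and 224 CPM, the steadiest of the 10 genes, with a coefficient of variation of 4.41% in the WT group and 2.79% in the cKO group. WT replicate 2 and cKO replicate 2 were level, and the other WT libraries were below the cKO libraries. On the log2 scale, cKO less WT came to 0.10 (standard error 0.13, 95% interval of the fold 0.872 to 1.32), and 0.13 without WT replicate 2.
Setdb1 lies on chromosome 3 from 95323525 to 95357202 on the minus strand and overlaps Cers2 on the other strand. Its WT libraries held 21.7, 24.7 and 26.5 CPM against 28.6, 22.1 and 25.2 CPM in cKO. The libraries of both groups were interleaved. As a log2 ratio, cKO over WT gave 0.06 (standard error 0.20, 95% interval of the fold 0.758 to 1.43), and 0.07 (standard error 0.16) without WT replicate 2. Whether reads were counted by strand is not given in the sources used here, so reads of Trim28 or Setdb1 and those of an overlapping gene cannot be told apart where they overlap.

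**Figure D3:**
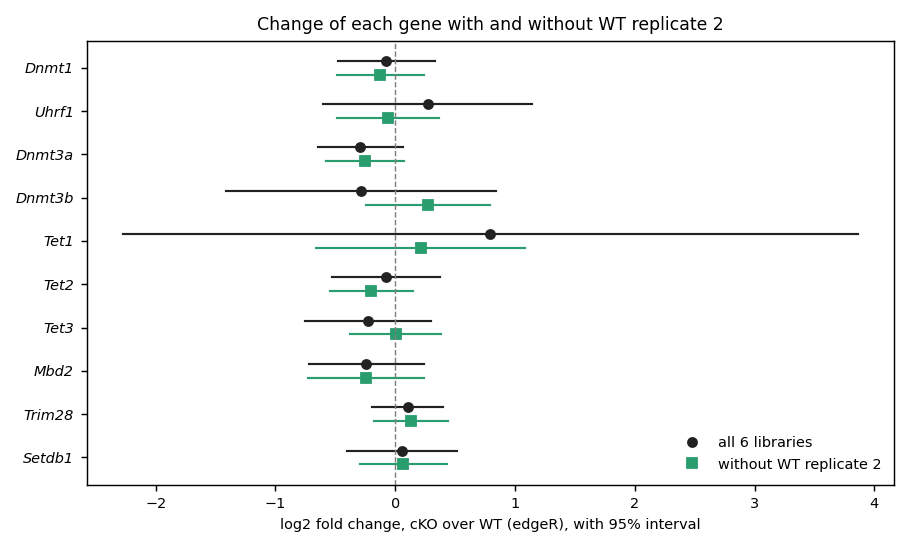
log2 fold change of cKO over WT with its 95% interval (horizontal axis) for each gene, from edgeR over all 6 libraries (circles) and without WT replicate 2 (squares). All intervals include 0. When that library is left out they become narrower for most genes, most so for Tet1, Dnmt3b and Uhrf1, and change little for Mbd2 and Trim28.

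The levels of the 10 genes were compared with each other only per kb of exon, from the merged exons of all isoforms in GENCODE, which understates genes with long alternative exons. The mean over the 6 libraries was 50.9 CPM per kb for Trim28, 18.2 for Mbd2, 6.78 for Uhrf1, 6.49 for Dnmt1, 4.68 for Tet3, 4.50 for Dnmt3a, 3.62 for Setdb1, 2.45 for Tet2, 1.34 for Dnmt3b and 0.194 for Tet1. Trim28 was higher per kb than 93.6% of the 14758 genes with a length, and Tet1 was higher than 21.2%. The ranges over libraries separated Trim28 from Mbd2, Mbd2 from Uhrf1, Setdb1 from Tet2, and Dnmt3b from Tet1. Uhrf1, Dnmt1, Tet3, Dnmt3a and Setdb1 overlapped each with its neighbour in this order, Dnmt1 and Tet3 through WT replicate 2 alone. Dnmt1 (5.15 to 7.30 CPM per kb) did not overlap with Setdb1 (3.17 to 4.18 CPM per kb), and Dnmt3a was at 0.561 to 0.846 of Dnmt1 within each library. Tet2 (2.08 to 2.90 CPM per kb) and Dnmt3b (0.970 to 2.42 CPM per kb) overlapped through WT replicate 2, without which the highest value of Dnmt3b was 1.29 CPM per kb.

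**Figure D4:**
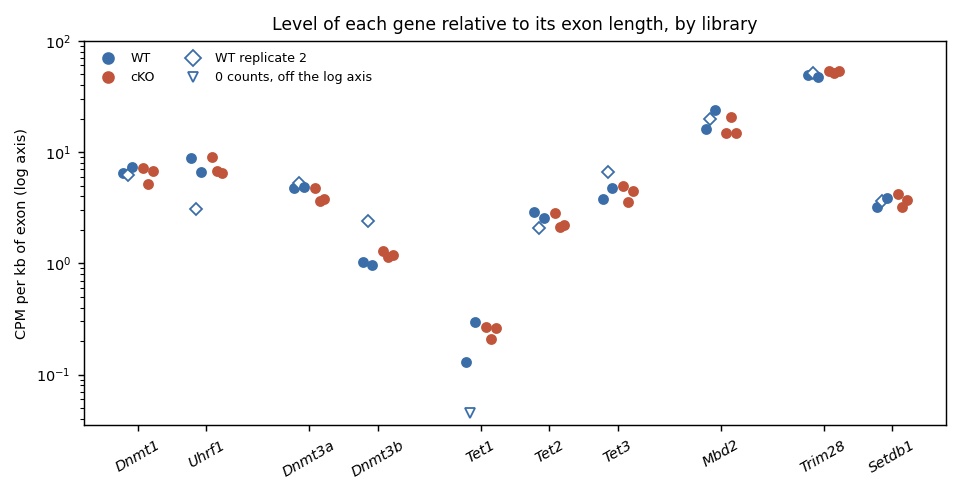
Level of each gene in each library, as CPM per kb of merged exon on a log axis, grouped by role. Trim28 is the highest at 46.8 to 53.9 CPM per kb and Tet1 the lowest at 0 to 0.297 CPM per kb, the library at 0 counts being drawn below the axis as a triangle.

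The wider DNA methylation machinery was read in the same way. Of 31 such genes (readers, partners, demethylation factors and the enzymes that supply methyl groups), 16 had log2 fold changes above and 15 below 0, with a median of 0.00, and 0 passed an adjusted p of 0.05 in edgeR. At an unadjusted p under 0.05, 2 were higher and 0 lower (0.94% and 0.868% of all genes). Both were at 0 counts in every WT library. Zfp57, a KRAB zinc finger gene whose protein binds methylated imprinted regions and recruits TRIM28, had 3, 15 and 5 counts in the cKO libraries. Its cKO mean was 2.46 times the limit of 3 counts in the WT libraries (unadjusted p = 0.0137, adjusted p = 0.984 from edgeR). This mean rested largely on cKO replicate 2, and cKO replicate 1, at 3 counts, was not above the limit. Dppa3, which protects the maternal genome from demethylation in the early embryo, had 4, 4 and 9 counts in the cKO libraries. Its cKO mean was 1.77 times that limit (unadjusted p = 0.0124, adjusted p = 0.984 from edgeR). Zfp57 and Dppa3 were among 29 genes (0.189% of those tested) with 0 counts in every WT library and at least 3 in every cKO library, while 2 genes showed the reverse. The reverse needed at least 3 counts in WT replicate 2 as well, where 11513 genes were detected against 14442 or more elsewhere. The numbers 29 and 2 are thus not like for like. Picked from the 29 after their values were seen, the oocyte genes Zp1, Zp2, Zp3, Oog1 and Oog3 also had 3 to 10 counts in each cKO library. The part of oocyte transcripts in the counts of Zfp57 and Dppa3 was not tested.
The most abundant genes of the list were Gadd45b, Mat2a and Uhrf2. Gadd45b, a stress gene linked to active demethylation, measured 544, 607 and 486 CPM in WT against 437, 448 and 350 CPM in cKO. Its groups did not overlap, and they differed on the log2 scale by -0.41 (standard error 0.18; edgeR: unadjusted p = 0.0554, or 0.0941 without WT replicate 2). Mat2a, which makes the methyl donor S-adenosylmethionine, had a log2 fold change of 0.02, and Uhrf2, the paralog of Uhrf1, one of -0.14. They were at 0.20 and -0.15 when WT replicate 2 was dropped. Ogt, whose product binds TET enzymes and attaches sugar to proteins, was on average at 195 ± 25.8 CPM in WT against 153 ± 26.8 CPM in cKO (SD, n = 3). Its unadjusted p from edgeR was 0.092, and 0.0424 without WT replicate 2, with log2 fold changes of -0.35 and -0.42.

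Of 25 genes of histone H3 lysine 9 methylation and KRAB zinc finger silencing, 11 had log2 fold changes above and 14 below 0, with a median of -0.13. When WT replicate 2 was dropped, 8 were above and 17 below 0, with a median of -0.08. At an unadjusted p under 0.05 in edgeR, 0 were higher and 0 lower, with or without WT replicate 2, and 0 passed adjustment. Sumo2 and Atrx, among the most abundant, had log2 fold changes of 0.18 and -0.13, and Sumo2 turned to -0.12 without WT replicate 2, where Atrx was at -0.15. Together the 25 genes held 2113, 1908 and 2054 CPM in WT against 2054, 2030 and 1952 CPM in cKO.

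**Figure D5:**
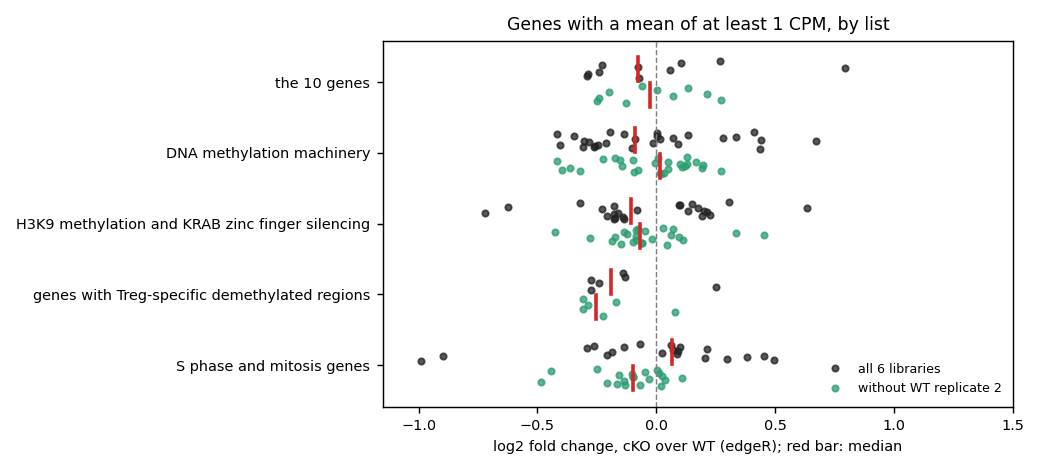
log2 fold change of cKO over WT (horizontal axis) for each gene with a mean of at least 1 CPM, by list, over all 6 libraries (black) and without WT replicate 2 (green), with the median of these genes in red (the germline and imprinted lists, with 6 and 5 such genes, are not drawn). The medians of the 5 lists drawn lie between -0.25 and 0.07, and without WT replicate 2 the largest absolute value falls from 0.67 to 0.42 in the machinery list and from 0.99 to 0.49 in the S phase list.

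The genes that this machinery is known to act on were read for their RNA. Foxp3, on the X chromosome, measured 241, 150 and 208 CPM in WT against 282, 189 and 242 CPM in cKO, or 0.25 as a log2 fold change (95% interval -0.28 to 0.78). Dropping WT replicate 2 lowered this to 0.08 (95% interval -0.34 to 0.50). Of 6 genes with Treg-specific demethylated regions (Foxp3, Ctla4, Il2ra, Tnfrsf18, Ikzf2 and Ikzf4), Foxp3 was the 1 with a log2 fold change above 0. The median of the 6 was -0.19, or -0.25 without WT replicate 2, and 0 had an unadjusted p under 0.05 in edgeR, with or without WT replicate 2. Ctla4, which encodes an inhibitory receptor and was the most abundant, came to -0.27 on the log2 scale (95% interval -0.76 to 0.21), and its groups did not overlap. Tnfrsf18 (the receptor GITR) and Ikzf2 (the transcription factor Helios), next in abundance, came to -0.14 and -0.24. Without WT replicate 2 the values of Ctla4, Tnfrsf18 and Ikzf2 were -0.22, -0.31 and -0.31.
Of 34 germline genes known to be silenced by promoter methylation, 14 were found in the deposited counts and analysed. Of these, 6 had log2 fold changes above and 8 below 0, with a median of -0.06. Without WT replicate 2, 4 were above and 10 below 0, with a median of -0.25. Their summed CPM was 11.6, 12.5 and 15.3 in WT against 11.8, 14.3 and 13.7 in cKO. The groups overlapped. Tdrkh, Zcwpw1 and Piwil2, the most abundant, stood at -0.04, 0.81 and 0.48 on the log2 scale, which became 0.32, 0.23 and -0.08 when WT replicate 2 was dropped. Dazl, a germ cell RNA-binding protein gene, had 2, 0 and 8 counts in the WT libraries and 0, 4 and 1 in the cKO libraries. Mael, a piRNA pathway gene, had 3, 1 and 3 counts in the WT libraries and 0 in each cKO library (unadjusted p = 0.0355, adjusted p = 0.984 from edgeR). All its libraries were at or under the limit of 3 counts, so no fold is given. It was the 1 gene of the 14 at an unadjusted p under 0.05, and 0.868% of all genes were lower at that limit.
Of 20 imprinted genes, 14 were found in the deposited counts and analysed, with 8 log2 fold changes above and 6 below 0. Their median was 0.63, and 0.06 without WT replicate 2, in which 8 of the 14 were at 0 counts. Over the 5 imprinted genes with a mean of at least 1 CPM the median had the other sign, -0.44, and was -0.12 without that library. Sgce had 1, 0 and 3 counts in the WT libraries and 12, 5 and 19 in the cKO libraries. Its log2 fold change was 2.93, with a 95% interval of 0.05 to 5.80 (edgeR: unadjusted p = 0.0468, adjusted p = 0.984). Cdkn1c, a cyclin-dependent kinase inhibitor gene, measured 1.43, 2.35 and 2.61 CPM in WT against 3.94, 3.41 and 5.43 CPM in cKO. Its log2 fold change was 1.00 (edgeR: unadjusted p = 0.11), or 1.08 without WT replicate 2 (edgeR: unadjusted p = 0.0204). The 3 most abundant, Igf2r, Impact and Plagl1, had log2 fold changes of -0.15, -0.56 and -0.44. These were -0.07, -0.12 and -0.34 without WT replicate 2, in which Impact was at 76.9 CPM.

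The promoter windows below show the CpG sites on which the enzymes can act, for a member and for 3 genes named above. Each window runs from 250 bases before to 50 bases after a transcription start in RefSeq (GRCm38.p6), is printed 5′ to 3′ in the direction of transcription, and has each CpG (CG) in capitals. Of a gene with several windows, the one with the most CpG was taken. The median of 32851 such windows was 7 CpG. The Dnmt1 window (chr9:20952574-20952873, minus strand) held 33 CpG, a number that 8.56% of all windows reach. The Mael window (chr1:166238695-166238994, minus strand) held 24, reached by 20% of windows. The Zfp57 window (chr17:37002275-37002574, plus strand) held 9, reached by 45.8%, and the Foxp3 window (chrX:7580233-7580532, plus strand) held 8, reached by 48.6%. The lowest window held 2 CpG for Dnmt1 (of 3 windows), 4 for Zfp57 (of 3) and 6 for Foxp3 (of 2). The Dnmt1, Zfp57 and Foxp3 windows lie inside the GENCODE span of their gene, so each shows an internal start and not the outermost one. The barely detected Mael gene and the abundant Dnmt1 gene each had a CpG-rich window, for Dnmt1 the richest of 3. Whether these sites were methylated was not measured.
Dnmt1: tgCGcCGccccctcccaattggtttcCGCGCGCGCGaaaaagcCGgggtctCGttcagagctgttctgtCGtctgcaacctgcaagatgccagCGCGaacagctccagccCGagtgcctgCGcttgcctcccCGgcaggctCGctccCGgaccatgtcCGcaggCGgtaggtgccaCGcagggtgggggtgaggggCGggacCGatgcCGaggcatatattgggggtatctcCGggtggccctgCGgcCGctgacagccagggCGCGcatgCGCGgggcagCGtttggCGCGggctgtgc
Mael: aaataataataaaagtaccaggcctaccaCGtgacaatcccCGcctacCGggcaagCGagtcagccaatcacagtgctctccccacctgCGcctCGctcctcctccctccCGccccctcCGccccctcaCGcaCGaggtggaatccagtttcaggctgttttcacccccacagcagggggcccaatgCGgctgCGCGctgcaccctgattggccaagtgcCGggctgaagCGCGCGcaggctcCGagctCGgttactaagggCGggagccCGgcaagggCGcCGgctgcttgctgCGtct
Zfp57: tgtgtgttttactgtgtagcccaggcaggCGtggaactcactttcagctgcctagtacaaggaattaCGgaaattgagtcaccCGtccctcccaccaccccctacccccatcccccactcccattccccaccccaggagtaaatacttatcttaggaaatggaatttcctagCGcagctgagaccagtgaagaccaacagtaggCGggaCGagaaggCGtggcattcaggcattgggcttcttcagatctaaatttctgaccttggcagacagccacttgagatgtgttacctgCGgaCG
Foxp3: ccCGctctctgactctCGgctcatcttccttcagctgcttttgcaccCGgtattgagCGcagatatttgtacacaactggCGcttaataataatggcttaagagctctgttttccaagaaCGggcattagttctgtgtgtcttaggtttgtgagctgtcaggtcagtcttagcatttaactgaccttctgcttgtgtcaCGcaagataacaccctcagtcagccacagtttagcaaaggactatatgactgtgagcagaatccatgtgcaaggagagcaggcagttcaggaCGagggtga
Windows of 9 of the 10 genes were matched. Tet2 had the most CpG (57, reached by 0.152% of windows), then Dnmt3a (47), Uhrf1 (33), Dnmt3b (30), Trim28 (23), Tet3 (22), Tet1 (17) and Setdb1 (15), all above the median of 7. These are the richest windows, while the median is over all windows. The lowest window held 18 CpG for Dnmt3a (of 3) and 12 for Uhrf1 (of 2).

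Markers of other cells were read beside these results. Of 6 neutrophil markers 5 had log2 fold changes above 0, and 4 without WT replicate 2, where Mmp8 turned from 0.19 to -0.38. Retnlg and S100a9 were higher in cKO with no overlap, as 5.01% of all genes were (edgeR: unadjusted p = 0.00237 and 0.0122, adjusted p = 0.984 for both). Cxcr2, the most abundant of the 6, went the other way at -0.58. Ly6g, a defining neutrophil marker, had at most 3 counts in any library, and the 6 summed to at most 16.6 CPM in WT and 14.6 CPM in cKO. The 5 red blood cell markers summed to 0 to 9.75 CPM in the WT libraries and 10.9 to 36.1 CPM in the cKO libraries. All 5 log2 fold changes were above 0, and 4 were without WT replicate 2, in which all 5 were at 0 counts. Alas2 then turned from 0.03 to -0.55. The 5 B and plasma cell markers summed to at most 65.0 CPM and 51.4 CPM, the 4 CD8 T and NK cell markers analysed to 5.22 to 26.3 CPM and 24.3 to 27.2 CPM, the 6 endothelial and stromal markers to 61.6 to 82.4 CPM and 70.9 to 96.7 CPM, and the 6 lung epithelial markers to 36.3 to 101 CPM and 37.3 to 69.1 CPM. Log2 fold changes were above 0 for 3 of the 5 B and plasma cell markers, and for 5 without WT replicate 2. In the same order, these numbers were 4 and 2 of the 4 CD8 T and NK cell markers. They were 6 and 4 of the 6 endothelial and stromal markers, and 3 and 1 of the 6 lung epithelial markers. For scale, the 10 genes summed to 563 to 603 CPM in the WT libraries and 532 to 607 CPM in the cKO libraries.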

How the data were processed

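RNA-Seq libraries of tumor-infiltrating Tregs were compared between the WT and cKO groups (3 each, taken from the titles of the samples). The authors deposited each estimated count per gene symbol, without normalization, from 150 bp paired-end reads aligned to GRCm38. The submitters' processing notes name Bowtie2 (version 2.3.4.3) and RSEM (version 1.3.1), and the annotation is not given in the sources used here. Of the deposited values, 21.6% were not whole. Such estimates divide reads shared between genes, and of the 10 genes this touched all 6 values of Dnmt3a and 1 of Trim28. Values were rounded. Replicates varied beyond sampling noise.

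Genes with at least 1 count (15315) were tested with edgeR's quasi-likelihood test (version 4.0.16, R version 4.3.3, TMM scaling, genotype only, Benjamini-Hochberg adjustment over all genes). The study's methods name DESeq2, run here (version 1.42.0) as an alternative. The others were limma's voomWithQualityWeights (version 3.58.1), median-of-ratios scaling, library size only, filterByExpr (minimum count 10), robust dispersions, a replicate block, and each library left out. Standard errors were derived from F statistics. The fits were tested on simulated data. Limits at a count of 3 cover the counting error of a count of 0 only, not that of the cKO counts set against them. Positions and exon lengths are from GENCODE vM21 (GRCm38). Fam208a was matched as Tasor. The 10 genes and the lists were chosen with earlier results of these data known. Named were all 10 genes, the 3 most abundant genes of each list (1 is not reported here) and up to 6 at an unadjusted p under 0.05 with or without WT replicate 2. Other genes given were chosen after their values were seen.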

Additional observations from a re-analysis of the deposited data

How the results depend on the processing

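Under 14 alternatives, 0 of the 10 genes passed an adjusted p of 0.05, and 128 of 140 log2 fold changes kept the direction of the edgeR fit over all 6 libraries. The other 12 were of 6 genes. With each library left out, log2 fold changes ran from -0.51 to 0.27 for Dnmt3b, -0.058 to 0.63 for Uhrf1, -0.39 to 0.0034 for Tet3 (the changed signs being those without WT replicate 2), -0.21 to 0.037 for Tet2 (0.037 without WT replicate 1), -0.17 to 0.054 for Dnmt1 (0.054 without cKO replicate 2) and -0.038 to 0.15 for Setdb1 (-0.038 without cKO replicate 1, -0.015 without WT replicate 1). With no change of sign they ran from 0.21 to 1.92 for Tet1 (1.86 with the replicate block), -0.42 to -0.086 for Mbd2, -0.42 to -0.22 for Dnmt3a and 0.074 to 0.13 for Trim28. DESeq2 without WT replicate 2 gave 0.27 for Dnmt3b, -0.060 for Uhrf1 and 0.00076 for Tet3, and limma's voomWithQualityWeights gave 0.21 for Dnmt3b and -0.012 for Uhrf1. With each library left out, 0 to 1 of the 10 had an unadjusted p under 0.05 from edgeR, the 1 being Dnmt3a without cKO replicate 1. Over all genes, calls at an adjusted p under 0.05 were 0 in edgeR, 2 in DESeq2, 3 in DESeq2 without WT replicate 2, and 0 to 1 in edgeR with each library left out (Xrcc6, without WT replicate 2). At an unadjusted p under 0.05, edgeR had 144 genes higher and 133 lower, DESeq2 95 and 212, limma 262 and 281, filterByExpr 39 and 101, and the replicate block 39 and 46, while leaving out libraries gave 45 to 287 higher and 20 to 601 lower. Whether the replicate numbers pair the samples is not stated in the sources used here, and 3 libraries per group cannot decide it. Correlations of same-numbered libraries' deviations were 0.03, -0.13 and 0.17 over 9647 genes. Those of differently numbered libraries ran from -0.25 to 0.22. The replicate block changed no call of the 10 genes. The count of 0 in WT replicate 2 limits Tet1, and low counts limit the lists' genes under 3 counts.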
